A study of Mus musculus with 4 samples.

Results

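The itch receptor and non-peptidergic nociceptor genes Mrgprd, Mrgpra3, Mrgprx1, Mrgprb4, Mrgprb5, Nppb, Sst, Il31ra, Osmr and Cysltr2 were followed in ribosome footprints of mouse dorsal root ganglia, where the cell bodies of the neurons that serve skin and viscera lie. They were taken by symbol from the deposited table. Each matched 1 row, so that 10 of 48431 genes are described. The assay sequences RNA fragments of 28 to 34 nt that ribosomes protect from digestion, and counts them per gene. All 4 libraries are labelled as wild-type male SW mice that received methylglyoxal (MGO), a reactive by-product of glycolysis, in a dose of 2 mg/kg, injected into the peritoneum over 6 days. Because the treatment protocol of these samples names saline instead, the libraries are called by the treatment label alone. Libraries from untreated mice were not analysed here, so genes are compared within a library, and libraries with each other.

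Non-peptidergic nociceptors are small unmyelinated neurons that end in the outer skin, and in the mouse their classes are told apart by receptors of the Mrgpr family. Mrgprd marks the class that responds to beta-alanine. Mrgpra3, the chloroquine receptor gene, and Mrgprx1, whose receptor binds the peptide BAM8-22, mark an itch class. The peptide genes Nppb and Sst are made together with the receptor genes Il31ra, Osmr and Cysltr2 by another itch class, which senses cytokines and leukotrienes. In a bulk sample, fewer cells of a class and fewer footprints per cell cannot be told apart.

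The libraries held 2610536 to 3753018 reads. Values are CPM, the reads of a gene per 1000000 reads of its library, not divided by gene length. A gene with no read could stand at up to 0.799 to 1.15 CPM, the worth of 3 reads, and this limit covers counting error only. Replicates 1 and 2 differed by little more than sampling noise, with a chi-square per degree of freedom of 1.03, as did replicates 3 and 4 with 1.05, against 3.27 to 4.01 for libraries of different pairs. The libraries of a pair were averaged and taken as 1 sample, so each mean ± SD has n = 2. Such an SD leaves out the spread within a pair and can be smaller than counting error. Whether replicates came from separate animals is not in the labels, and the spread may be technical. All 9 pan-neuronal and all 5 satellite glia genes listed were detected, which here means an average of 1 CPM or more.

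The Mrgpr genes are close copies of each other, and the sequences that they share with other genes are shown first because they limit what their values mean. For each receptor the longest stretch of coding sequence that also occurs unbroken in a transcript of another gene is in capitals, with up to 15 bases of its own flanks in lower case (GENCODE M21 transcripts on GRCm38, sense strand).
Mrgpra3, shared with Mrgpra4: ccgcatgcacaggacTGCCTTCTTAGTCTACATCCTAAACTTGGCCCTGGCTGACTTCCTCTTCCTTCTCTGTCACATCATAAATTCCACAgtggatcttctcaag
Mrgprx1, shared with the pseudogene Gm18348: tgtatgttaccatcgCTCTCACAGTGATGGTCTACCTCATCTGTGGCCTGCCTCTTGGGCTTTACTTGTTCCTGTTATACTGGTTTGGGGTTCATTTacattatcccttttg
Mrgprb4, shared with the pseudogene Mrgprb12-ps: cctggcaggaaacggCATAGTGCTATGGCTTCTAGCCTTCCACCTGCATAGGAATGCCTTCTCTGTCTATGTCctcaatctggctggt
Mrgprb5, shared with Mrgprb4: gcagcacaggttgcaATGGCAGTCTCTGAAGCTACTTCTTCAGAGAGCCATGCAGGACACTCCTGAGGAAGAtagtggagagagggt
The capitals cover coding bases 216 to 291, 662 to 743, 144 to 201 and 861 to 917, which are 76, 82, 58 and 57 bases, and a footprint of 28 bases that falls wholly inside one of them cannot be assigned to a single gene. Mrgprd has no such run.

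Over the whole coding sequence, 0 of the 936 windows of 28 bases in Mrgprd occurred in another gene. The shares were 30.2% for Mrgpra3, 32.3% for Mrgprx1, 16.9% for Mrgprb4 and 9.37% for Mrgprb5. With up to 2 mismatches to another Mrgpr gene allowed, the shares were 67.1%, 76.8%, 65.1% and 41.4%, and Mrgprd was again at 0. Mrgprb4 and Mrgprb5 were 84.3% identical over their aligned coding sequences, and the other pairs of the 5 receptors between 53.0% and 63.3%. Nppb, Sst, Il31ra, Osmr and Cysltr2 shared no window. All 40 values of the 10 genes were whole reads, and the pseudogenes that share most with Mrgprx1 were nearly empty: Gm18348 and Mrgprc7-ps were at 0 reads in all 4 libraries together, and Mrgprc1-ps at 2. The genes that share most with Mrgpra3 were not empty. Mrgpra4, with 202 shared windows, had 50 reads, and the pseudogene Mrgpra14, with 138, had 36. How the authors treated reads with several matches is not given in the sources used here, so the levels of Mrgpra3, Mrgprx1, Mrgprb4 and Mrgprb5 are uncertain by the reads that these windows could gain or lose.

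**Figure D1:**
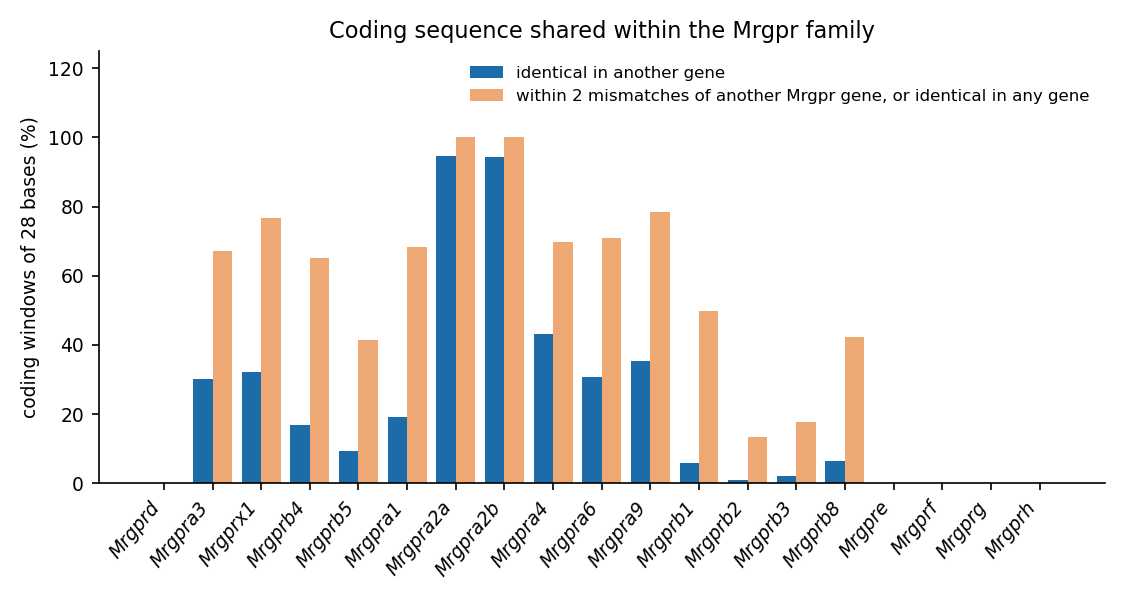
Share of coding windows of 28 bases (percent, linear axis from 0) in each Mrgpr gene that is identical in another gene (blue) or within 2 mismatches of another Mrgpr gene, or identical in any gene (orange). Mrgprd, Mrgpre, Mrgprf and Mrgprg stand at 0 in both, and Mrgpra2a and Mrgpra2b, at 94.7% and 94.2% identical windows, are the most shared.

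Mrgprd held more reads than any other of the 10 genes (ENSMUSG00000051207.7, chromosome 7, 145314835 to 145324086, plus strand, GRCm38). It stood at 249, 263, 388 and 416 CPM in replicates 1 to 4, from 868, 694, 1012 and 1560 reads. Replicates 3 and 4 were both above replicates 1 and 2. The mean was 329 ± 103 CPM (SD, n = 2), rank 340 of 15271 detected genes, and Mrgprd alone held 60.5% ± 7.76 of the reads of the 10 genes.

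Mrgpra3 (ENSMUSG00000078698.3, chromosome 7, 47588950 to 47601372, minus strand) was the highest of the other Mrgpr genes among the 10, per kb of coding length as well. It stood at 36.1, 37.6, 45.2 and 49.6 CPM in replicates 1 to 4. Again replicates 3 and 4 were the higher ones, and the mean was 42.1 ± 7.44. Per kb of coding length, Mrgprd exceeded it 8.01-fold in the summed reads (95% interval 7.31 to 8.78, counting error only), a log2 difference of 2.95 ± 0.21 that was positive in 4 of 4 libraries. The size rests on the length used, since the log2 difference was 1.63 per kb of the longest transcript and 2.44 per kb of windows not shared with another gene. The last value divides all reads of a gene by its unshared windows alone, as if reads with several matches had been left out. Whether they were is not known.

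Mrgprx1 (ENSMUSG00000070552.2, chromosome 7, 48020971 to 48027597, minus strand), which encodes the receptor also called MrgprC11, had 10.9, 12.1, 16.9 and 14.1 CPM in replicates 1 to 4. Its lowest library of replicates 3 and 4 was above the highest of replicates 1 and 2. Mrgpra3 exceeded it 3.10-fold per kb (2.60 to 3.71), with a log2 difference of 1.55 ± 0.03 in 4 of 4 libraries. The 4 libraries ranged from 1.34 to 1.71, wider than this SD of the 2 pair means.

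Mrgprb5 (ENSMUSG00000070551.3, chromosome 7, 48167983 to 48169019, minus strand) varied least of the 5 Mrgpr receptors, at 10.9, 10.6, 12.3 and 11.99 CPM in replicates 1 to 4. Its highest library was 1.15-fold above its lowest, against 1.37-fold to 2.48-fold for the other 4. Mrgprb4 (ENSMUSG00000070550.2, chromosome 7, 48198070 to 48199288, minus strand) is known from mouse neurons that respond to stroking of the skin. Its mean was the lowest of the 10 genes. Mrgprb4 had 3.15, 3.80, 1.53 and 2.13 CPM, from 11, 10, 4 and 8 reads, a range that overlapped that of Cysltr2. Mrgprb5 exceeded Mrgprb4 4.32-fold per kb (2.94 to 6.51), with a log2 difference of Mrgprb4 minus Mrgprb5 of -1.82 ± 0.59 that was negative in 4 of 4 libraries. Mrgpra3 exceeded Mrgprb4 15.6-fold per kb (11.0 to 23.0), and Mrgprd exceeded Mrgprb5 29.0-fold (24.5 to 34.5), each in 4 of 4 libraries. For Mrgprd minus Mrgprb5 the log2 difference was 4.70 per kb of coding length and 3.10 per kb of the longest transcript. With a pseudocount of 5, Mrgpra3 minus Mrgprb4 was 2.62 in place of 3.57, and Mrgprb4 minus Mrgprb5 was -1.13.

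**Figure D2:**
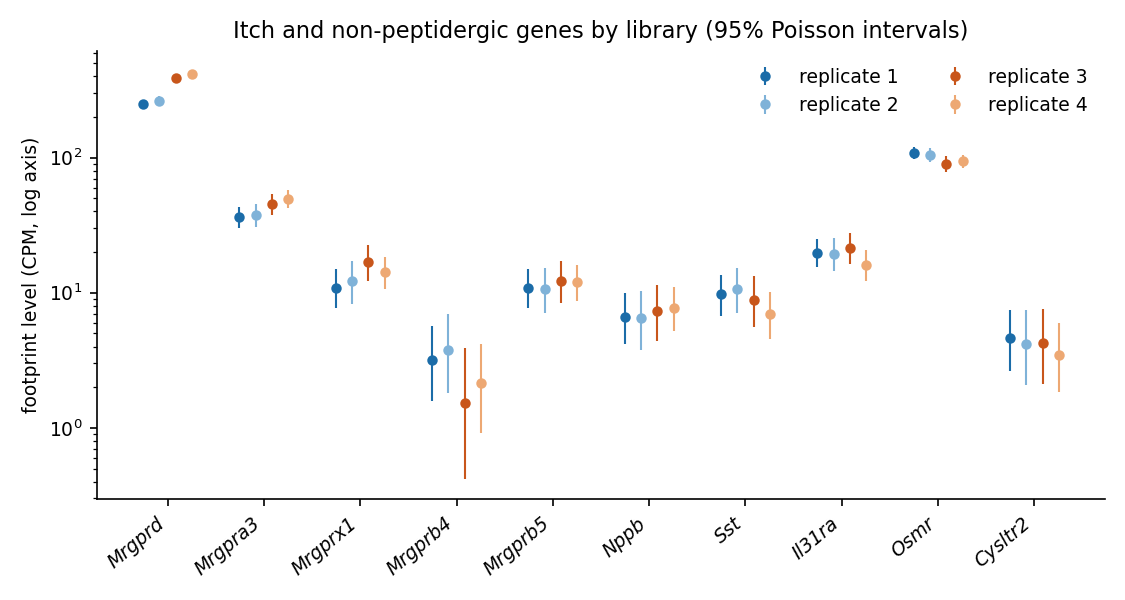
Footprint level in CPM (log axis) of the 10 genes in replicates 1 to 4, as points with 95% Poisson intervals that cover counting error only. Mrgprd stands at 249 and 263 in replicates 1 and 2 and at 388 and 416 in replicates 3 and 4. For every other gene the intervals overlap among all 4 libraries.

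Of the other Mrgpr genes listed, 9 of 15 were detected. This count depends on how reads with several matches were assigned. Mrgpra2a and Mrgpra2b share 910 of their 966 windows with each other. Mrgpra2b, with 20 reads, counted as detected, and Mrgpra2a, with 4, did not. Mrgprf and Mrgpre, which share no window with another gene, had the most reads, with 36.8 ± 1.49 and 29.9 ± 7.95 CPM. Mrgpra1, with 19.2% of its windows identical in another gene, followed with 5.33 ± 0.396, and Mrgprh was the lowest detected gene with 1.15 ± 0.947. Mrgprb3, Mrgprb8 and Mrgprg were listed at 0 in all 4 libraries. Mrgprb2, the receptor gene of connective tissue mast cells, had 4, 4, 2 and 1 reads. Mast cell markers were present, with 6 of 8 detected: the protease gene Mcpt4 stood at 45.9 ± 16.96 CPM, and the summed level of the list was 297 and 277 CPM in replicates 1 and 2 against 226 and 222 in replicates 3 and 4.

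The 2 peptide genes encode precursors whose active part lies at the end of the coding sequence, shown here as the last 14 codons of Sst and the last 45 codons of Nppb. Cysteine codons are in capitals, and their residues close the disulfide ring through which these hormones bind their receptors.
Sst, last 14 codons: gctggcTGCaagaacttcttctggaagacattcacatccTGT
Nppb, last 45 codons: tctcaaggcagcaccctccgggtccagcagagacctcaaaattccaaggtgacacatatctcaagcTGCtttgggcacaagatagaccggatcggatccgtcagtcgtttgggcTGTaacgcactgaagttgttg
The ring spans 12 codons in Sst and 17 in Nppb, and no window of 28 bases of either gene occurred in another annotated gene.

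Sst (ENSMUSG00000004366.3, chromosome 16, 23889573 to 23890958, minus strand), the somatostatin gene, stood at 9.75, 10.6, 8.81 and 6.93 CPM in replicates 1 to 4. Nppb (ENSMUSG00000029019.8, chromosome 4, 147985788 to 147987205, plus strand), which encodes the natriuretic peptide that itch neurons release in the spinal cord, stood at 6.59, 6.45, 7.28 and 7.73 CPM. Sst was higher in replicates 1 and 2 and Nppb in replicates 3 and 4, by small margins. The 2 genes could not be ordered: the log2 difference of Nppb minus Sst per kb was -0.39 ± 0.39, positive in 1 of 4 libraries, and the ratio of their summed reads per kb was 0.760 (0.568 to 1.01). Mrgprd exceeded Nppb 17.7-fold per kb (14.3 to 22.1) and Mrgpra3 did so 2.21-fold (1.76 to 2.80), in 4 of 4 libraries each. The log2 difference of Mrgprd minus Nppb was 4.04 per kb of coding length, 3.37 per kb of the longest transcript and 5.33 without length. That of Mrgpra3 minus Nppb was 1.10, 1.74 and 2.42 in the same order. Neurons of the spinal cord also make Sst. Of 7 spinal cord genes 6 were detected, at summed levels of 23.4 to 26.8 CPM per library, and their part in the Sst value was not tested.

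Receptors for these peptides were sparse in the ganglion. Npr1, the receptor gene for natriuretic peptides of the Nppb kind, stood at 8.79 ± 1.38 CPM and the clearance receptor gene Npr3 at 6.26 ± 0.165. Npr2, whose receptor prefers the C-type peptide, stood at 78.7 ± 8.15. Of the somatostatin receptor genes, Sstr4 reached 4.74 ± 0.434 and Sstr2 2.73 ± 0.454, and Sstr1, with the fewest reads of the detected genes listed, stood at 1.27 ± 0.0974. Grpr, the gene of the spinal gastrin-releasing peptide receptor, had 2 reads in all 4 libraries together, and its ligand gene Grp had 4.

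Osmr and Il31ra encode the subunits of the receptor for the itch cytokine interleukin 31. Osmr (ENSMUSG00000022146.12, chromosome 15, 6813577 to 6874969, minus strand) stood at 108, 104, 90.0 and 94.1 CPM in replicates 1 to 4. Here replicates 3 and 4 were the lower ones, and the mean was 99.1 ± 9.95. Il31ra (ENSMUSG00000050377.7, chromosome 13, 112519898 to 112594360, minus strand) stood at 19.8, 19.4, 21.5 and 16.0 CPM, with overlapping pairs. The processed pseudogene Gm3226 overlaps one end of the Il31ra locus on the same strand.

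Osmr exceeded Il31ra 3.87-fold per kb of coding length (3.37 to 4.47), a log2 difference of 1.82 ± 0.09 in 4 of 4 libraries. Osmr also pairs with gp130, the product of Il6st, to form a receptor for oncostatin M. Il6st stood at 739 ± 40.2 CPM, 7.90-fold above Osmr per kb (7.45 to 8.39) in 4 of 4 libraries. The log2 difference of Osmr minus Il6st was -2.95 per kb of coding length and -2.18 per kb of the longest transcript. Fibroblasts and endothelial cells, which make Osmr too, were present: all 6 fibroblast genes and all 5 endothelial genes were detected, with summed levels of 21585 to 23910 and 218 to 243 CPM per library. Their part in the Osmr value was not tested.

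Cysltr2 (ENSMUSG00000033470.11, chromosome 14, 73025603 to 73049114, minus strand), the receptor gene for cysteinyl leukotrienes, stood at 4.59, 4.18, 4.21 and 3.46 CPM in replicates 1 to 4, from 11 to 16 reads a library. The libraries overlapped. Il31ra exceeded it 2.00-fold per kb (1.47 to 2.76), in 4 of 4 libraries, a log2 difference of 0.87 that was 1.98 without division by length. Genes that make its ligands were also detected: Alox5ap at 14.4 ± 2.38, Alox5 at 8.20 ± 2.40 and Ltc4s, the leukotriene C4 synthase gene, at 2.23 ± 0.329 CPM. The median over all detected genes was 13.9 CPM.

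The order of the 10 genes changed once levels were divided by coding length. It ran from Mrgprd at 342 ± 107 CPM per kb over Mrgpra3 (42.7 ± 7.54), Osmr (34.0 ± 3.42), Sst (25.9 ± 4.72), Nppb (19.3 ± 1.91), Mrgprx1 (13.98 ± 2.90), Mrgprb5 (11.8 ± 0.996), Il31ra (8.91 ± 0.281) and Cysltr2 (4.43 ± 0.414) to Mrgprb4 (2.76 ± 1.21). Neighbours whose ranges over the libraries overlapped, and which are therefore not ordered, were Mrgpra3 and Osmr, Sst and Nppb, Mrgprx1 and Mrgprb5, and Cysltr2 and Mrgprb4. In all but the last of these pairs the first gene was higher in 3 of 4 libraries, and Cysltr2 exceeded Mrgprb4 in 4 of 4. Some ranges that did not overlap lay close. The lowest library of Osmr was at 30.9 and the highest of Sst at 30.5 CPM per kb. For Nppb and Mrgprx1 these were 17.8 and 17.4, and for Mrgprb5 and Il31ra 11.0 and 9.99. Counting error was not part of this rule, so such close neighbours are not firmly ordered either. The short peptide genes moved up in this order: Sst and Nppb lay above Il31ra per kb although Il31ra had more reads. Whether all reads lie in the coding sequence, as this division takes them to, was not checked.

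**Figure D3:**
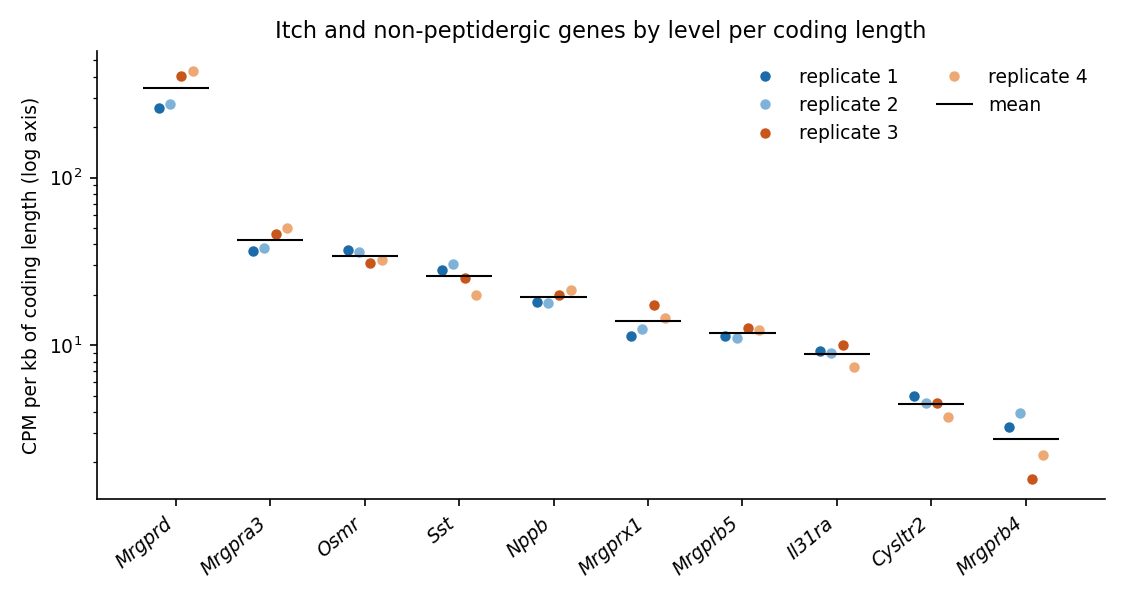
Level in CPM per kb of coding length (log axis) of the 10 genes in falling order, with 1 point per library and a line at the mean of the pair means. Mrgprd at 342 stands apart from the other genes, which lie between 2.76 and 42.7.

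In the 12 comparisons between genes, the two-sided exact sign-flip permutation test over the 4 libraries gave p = 0.125 for 11, the smallest value it can give, and p = 0.25 for Nppb minus Sst. After Benjamini-Hochberg adjustment over the 12 they were 0.136 and 0.25, so no comparison can pass 0.05 in this design. That test takes the 4 libraries as independent. Over the 2 pair means, each pair being 1 sample, the same exact test gave p = 0.5 for all 12, again its smallest value. The other comparison was Mrgprd with P2rx3, the ATP-gated channel gene of the same neurons. Mrgprd was 1.28-fold higher per kb of coding length (1.23 to 1.34) in 4 of 4 libraries, but the log2 difference of 0.34 ± 0.04 became -0.76 per kb of the longest transcript, so these 2 genes are not ordered.

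The 10 genes did not differ in 1 direction between the library pairs. Replicates 3 and 4 were both above replicates 1 and 2 for Mrgprd, Mrgpra3, Mrgprx1, Mrgprb5 and Nppb, 5 of 10 genes, against 24.6% of all 15271 detected genes. They were both below for Mrgprb4, Sst and Osmr, 3 of 10, against 23.4% of all. Il31ra and Cysltr2 overlapped, so the pairs were apart in either direction for 8 of 10, against 48.0% of all. With a mean of at least 10 CPM it was 5 of 6 genes, against 52.8%. A difference of at least 1.5-fold was seen upward for Mrgprd alone, 1 of 10 against 4.3% of all, and downward for Mrgprb4 alone, 1 of 10 against 5.12%. The median log2 difference was 0.05 over the 10 genes and -0.004 over all detected genes.

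Most of these differences were no larger than counting error. Mrgprd was 1.58-fold higher in replicates 3 and 4 (1.49 to 1.69), above 96.6% of detected genes in this difference. Mrgpra3 was 1.30-fold higher (1.09 to 1.55), and Osmr was 1.15-fold lower (1.03 to 1.29). The intervals of the other 7 genes included 1, from Mrgprx1 at 1.33 (0.970 to 1.84) to Mrgprb4 at 0.550 (0.247 to 1.17).

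**Figure D4:**
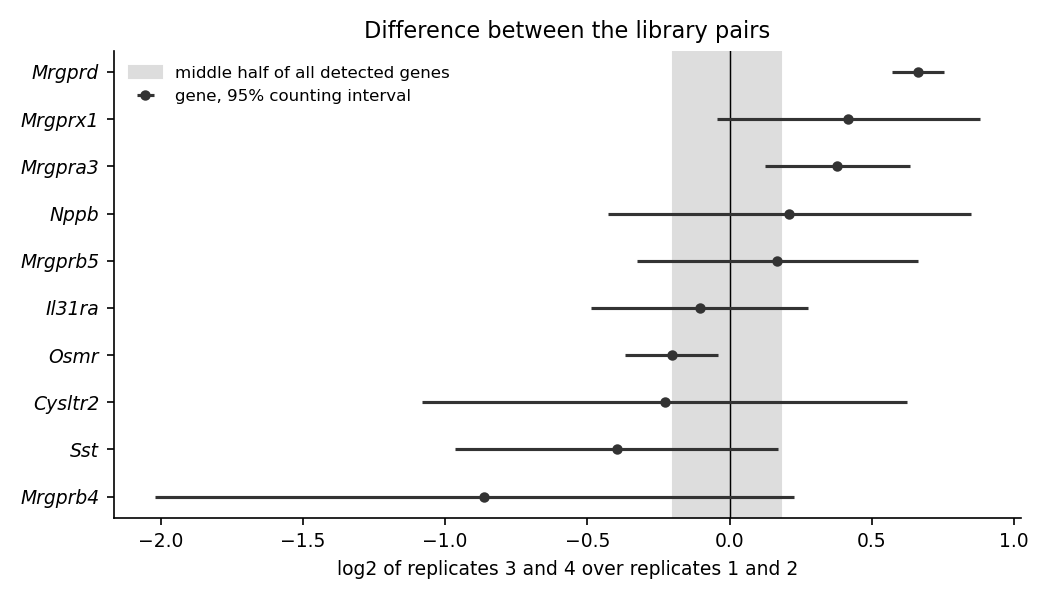
Log2 of the level in replicates 3 and 4 over that in replicates 1 and 2 for the 10 genes, as points with 95% exact intervals of the read counts. The grey band, from -0.20 to 0.18, holds the middle 50% of all detected genes, and the interval of Mrgprd, 0.57 to 0.76, lies to its right.

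Further genes of non-peptidergic neurons differed in the direction of Mrgprd. Of the 16 listed, all were detected, replicates 3 and 4 were both above replicates 1 and 2 in 14 (background 24.6%), and in 0 were both below. Their median log2 difference was 0.31 and their summed level was 1.24-fold higher. The 7 peptidergic nociceptor genes had 0.34 and 1.27-fold, so this shift was not particular to non-peptidergic genes. P2rx3 stood at 251, 261, 406 and 364 CPM in replicates 1 to 4, and was 1.49-fold higher in replicates 3 and 4 (1.40 to 1.59). The sodium channel gene Scn11a was 1.23-fold higher (1.19 to 1.26) at a mean of 1476 ± 214 CPM. Ret, the signalling subunit of the receptors for GDNF-type growth factors, was 1.24-fold higher (1.19 to 1.29) at 693 ± 104 CPM. Plcb3, a phospholipase gene, stood at 324 ± 11.4 CPM with a ratio of 1.05 (0.987 to 1.12). Lpar5, a lysophosphatidic acid receptor gene with the fewest reads of the list at 14.7 ± 5.76 CPM, was 1.76-fold higher (1.29 to 2.42). Gna14 and Prkcq overlapped between the pairs, at ratios of 0.994 and 1.01.

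Lists of other cell types were read against the same background, 24.6% of detected genes above and 23.4% below. Of the 7 peptidergic nociceptor genes, 6 were higher in replicates 3 and 4 and Gal was lower. Of the 9 pan-neuronal genes 6 were higher and 0 lower, with a summed level 1.05-fold higher, and of the 8 large-diameter neuron genes 1 was higher and 4 lower. All 6 skeletal muscle genes were lower, and their summed level was 3456 and 3506 CPM in replicates 1 and 2 and 2121 and 2120 in replicates 3 and 4. Mast cell genes were lower in 5 of 6 and macrophage genes in 6 of 7 detected members. Of 5 genes of myelinating Schwann cells 3 were higher and 2 lower, with a summed level 1.24-fold higher. Satellite glia genes were higher in 2 and lower in 1 of 5 at a summed ratio of 1.01, and endothelial genes higher in 1 and lower in 1 of 5 at 0.997. The part of these cell types in the differences of Mrgprd and the other 9 genes was not tested.

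**Figure D5:**
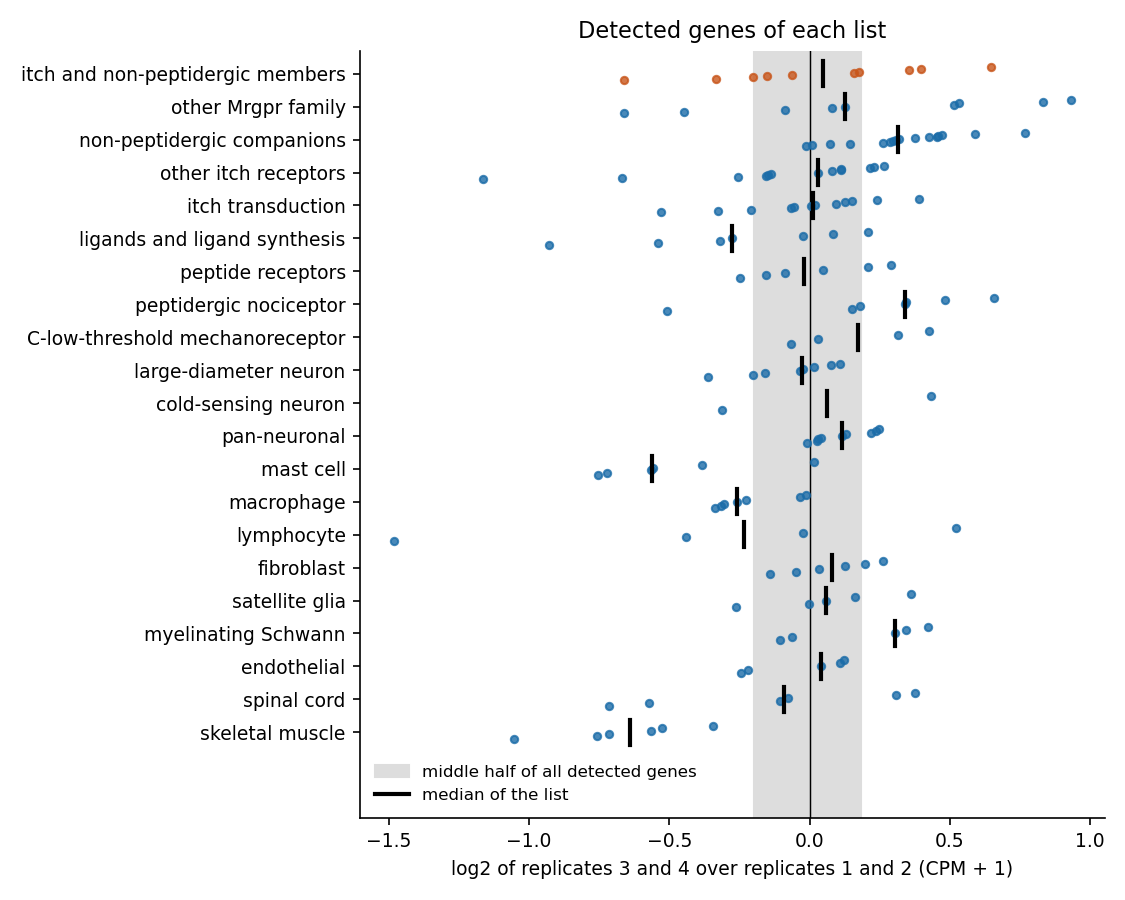
Log2 of replicates 3 and 4 over replicates 1 and 2, on CPM + 1, for the detected genes of each list (points) with the list's median (black bar). The 16 non-peptidergic companions lie mostly to the right with a median of 0.31, the 10 itch and non-peptidergic genes (orange) spread from -0.66 to 0.65, and skeletal muscle lies to the left with a median of -0.64. The peptidergic nociceptor genes have a median of 0.34.

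Receptors and transducers that act beside the 10 genes were mostly detected. Of 16 other itch receptor genes 13 were detected. Most reads fell on Il6st, on the leukaemia inhibitory factor receptor gene Lifr (593 ± 66.6 CPM) and on Il4ra (43.6 ± 5.57), a subunit of the interleukin 4 and 13 receptors. Replicates 3 and 4 were above in 2 and below in 4 of the 13 (24.6% and 23.4% of all detected genes). Those below include the leukotriene B4 receptor gene Ltb4r1, which was 2.57-fold lower. The histamine receptor gene Hrh1 had 5.34 ± 0.817 CPM, the serotonin receptor gene Htr7 had 1.60 ± 0.0387, and the bile acid receptor gene Gpbar1 was listed at 0.

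All 12 transduction genes were detected, with 2 above and 4 below against 24.6% and 23.4% of all detected genes. Stat3 (417 ± 13.5 CPM), Jak1 (328 ± 3.01) and Pirt (129 ± 5.88), a regulator of TRPV1, had the most reads, and the kinase gene Tyk2 had 4.50 ± 1.05. JAK1 and JAK2 are kinases of the interleukin 31 receptor, and Jak2 stood at 12.1 ± 1.34 CPM. The irritant channel genes Trpv1 and Trpa1 stood at 82.1 ± 6.11 and 64.5 ± 7.72.

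Ligand genes of these receptors ranged from no reads to clear detection. Of 15 ligand and ligand synthesis genes 7 were detected, with replicates 3 and 4 above in 0 and below in 3 (24.6% and 23.4% of all detected genes). Il4 and Il13 were listed at 0 in all libraries, and Il31, Osm and Tslp each had 1 read in all 4 libraries together. Il33, which encodes an alarm cytokine, stood at 28.6 ± 0.348 CPM and Penk at 12.2 ± 0.534. The Penk precursor is the source of the Mrgprx1 ligand BAM8-22. Hdc, the histidine decarboxylase gene that makes histamine in mast cells, stood at 11.5, 8.73, 4.60 and 5.06 CPM in replicates 1 to 4, lower in replicates 3 and 4 as the mast cell proteases were.

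Protein-coding genes with the pattern over the 4 libraries most like that of Mrgprd were Tmem79, Atp6v0c, Pitpnc1, Scn4b and Clgn, of 2956 genes that averaged 50 CPM or more. Likeness was the Euclidean distance of log2(CPM + 1) after centring, and theirs ran from 0.0838 to 0.122. P2rx3 came 14th with 0.194, Grik1 33rd and Gfra2 47th. The nearest to Mrgpra3 were Tmem255a, Srsf5, Thy1, Rsrp1 and Necab1, at 0.0254 to 0.0478. Because the 4 libraries form 2 pairs, such likeness is mainly a like difference between the pairs.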

How the data were processed

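Ribosomes were isolated on spin columns, rRNA was depleted, and small RNA libraries were built from gel-selected fragments of 28 to 34 nt, per the labels' protocols. The submitters' processing notes name FastQC 0.11.5, Bowtie2 2.2.9, TopHat2 2.1.1 and Cufflinks 2.2.1, and the build GRCm38. They give no role or order, and no annotation, rule of counting or strand was found in the sources. The authors' deposited columns are named for TPM but behave as CPM: 96.5% to 97.0% of values above 0 were whole multiples of 1 step per library (tolerance 0.02 steps), which gave the read totals. Because a minority were not whole reads, no count model was run.

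Values were used as deposited in the 4 libraries of 1 group. Coordinates, coding lengths (longest coding transcript) and sequences came from GENCODE M21 (GRCm38), which held 48052 of the gene IDs. Differences between genes were taken as log2(CPM per kb + 1) in each library. Intervals of ratios are exact binomial intervals of the read counts at 95% and cover counting error only. Beside the 10 genes, the rule names the 3 with the most and the 1 with the fewest reads among the detected genes of each list, those at 0, those in comparisons, and the 5 most like Mrgprd and Mrgpra3; markers of other cells are given as counts and sums. Grp, Grpr, Hdc, Hrh1, Il31, Osm, Tslp, Mrgprb2, Sstr2, Sstr4, Alox5, Gna14, Prkcq, Jak2, Trpa1, Ltb4r1, Gal, Gfra2, Grik1 and the pseudogenes were chosen after their values were seen. Mcpt4, Trpv1, Mrgpra4, Mrgpra2a and Mrgpra2b are also given with values outside the rule. The genes and lists were chosen with earlier results of these data known. Alternatives changed the scaling, length, pseudocount (0.1, 5) and replicates. Steps were tested on simulated data. Python 3.11.15, numpy 2.4.6, pandas 2.3.3, scipy 1.17.1, Biopython 1.88 and matplotlib 3.10.9 were used.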

Additional observations from a re-analysis of the deposited data

How the results depend on the processing

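The 12 comparisons between genes were recomputed in 118 alternatives: CPM without length, per kb of the longest transcript, per kb of windows not shared with another gene, pseudocounts of 0.1 and 5, 4 separate libraries, and without each replicate. The direction was the same in 117, but the choice of length moved the size of 7 comparisons by over 1.5 times. The exception was Mrgprd minus P2rx3, which came to -0.76 per kb of the longest transcript, where untranslated bases count as length. The sign-flip test over the 2 pair means, added after seeing the data, leaves the values as they are. Taking the 4 libraries separately leaves the means as they are too. Leaving out 1 replicate cannot reverse a difference that has the same sign in all libraries. Such alternatives could not test the direction. Of the 80 recomputed differences between the library pairs, 80 lay inside the counting interval of their gene. This was a weak check, because the alternatives reuse the same reads and the intervals of genes with few reads are wide. The log2 difference of Il31ra changed direction without replicate 4, from -0.06 to 0.13. Of 70 recomputed levels 9 moved by more than 1 SD, 7 of them upward when mitochondrial and rRNA reads were left out of the total. That scaling also raised Mrgprd from 329 to 396 CPM, Mrgprx1 from 13.5 to 16.3 and Mrgprb4 from 2.65 to 3.22. These rises stayed within wider SDs of 103, 2.80 and 1.16. Il31ra alone moved without 1 replicate, to 17.8 and 20.5 CPM, where its SD was only 0.604. The measure therefore depends on the SD of each gene. The number of genes whose pairs did not overlap was 8, and 8 to 10 without 1 replicate or with another scaling. The matching share of all genes, 48.0%, was 73.0% to 74.9% without 1 replicate, since 1 library of a pair then stands alone. No paired analysis was possible because all 4 libraries belong to 1 group. Depth limits Mrgprb4, Cysltr2 and Nppb, with 33, 51 and 88 reads in all libraries together.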
